A study of Bos taurus with 92 samples.

Results

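GAR1, LARP7, PABPN1 and ZCCHC17 are 4 bovine genes whose proteins bind RNA in the nucleus or nucleolus. They were chosen by the level of their transcripts, low in single blastocysts made by fertilisation in vitro (IVF), and they are 4 of the 4398 genes that could be tested on the array. The levels in IVF embryos therefore chose the genes, and every difference in level of these 4 genes between IVF embryos and other samples is a description without a test. The gene assignments came from the array's platform annotation, which gave each gene 1 probe spotted in 2 places, with NCBI Gene IDs 515057 for GAR1, 505053 for LARP7, 282298 for PABPN1 and 538816 for ZCCHC17.

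GAR1 is a protein of the H/ACA ribonucleoproteins, particles in which a small guide RNA directs the conversion of uridine to pseudouridine in ribosomal and spliceosomal RNA. LARP7, a La-related protein, binds the end of the 7SK RNA and keeps together the particle that holds the transcription elongation factor P-TEFb inactive. PABPN1, the nuclear poly(A)-binding protein, coats the growing poly(A) tail of a new messenger RNA and helps poly(A) polymerase to extend it. ZCCHC17 is a zinc knuckle protein that was described in human and mouse cells as a nucleolar protein associated with ribosomal subunits. These roles were worked out mainly outside cattle. A blastocyst, the embryo stage with an outer trophectoderm and an inner cell mass, transcribes its own genome and builds ribosomes rapidly.

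The study measured 15 IVF blastocysts, 15 blastocysts from nuclear transfer (NT, in which an oocyte receives the nucleus of a somatic cell), 14 blastocysts from artificial insemination (AI) and 2 samples of somatic cells that the labels call donor cells. The labels give no treatment, breed, sex, cell line or age for any group. Every sample was compared with the same reference RNA on 2 custom cDNA arrays, 1 with the sample in Cy5 and 1 with the sample in Cy3, which gave 92 arrays. The labels number 8 NT embryos with the prefix 2_, 7 NT embryos with the prefix 3_ and 3 AI embryos with the prefix H, without saying what the prefixes mean. The labels name no culture system, sire, dam or clutch, so that p-values measure the spread between these samples. In the limma fits of levels this spread was pooled over all 46 samples, IVF embryos included.

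All values are log2 ratios of a sample to the reference RNA, after each array had been centred on its median, so that 0 is the level of the median spot and 1 unit is a doubling. The deposited ratio was read as Cy5 over Cy3, a direction inferred from the files and likely but not certain. With it, the mean level of 9 fibroblast markers was -2.53 to -1.71 in embryos and 0.98 to 1.06 in donor cells, and that of 17 trophectoderm markers was 0.86 to 2.24 in embryos and -0.37 to -0.24 in donor cells. With the opposite reading the sign of every level and difference below would turn, while the correlations would stay the same. The inner cell mass list had 2 of its 9 markers on the array and did not separate embryos as a class, with -0.19 to 1.33 in embryos and 1.32 to 1.55 in donor cells. Agreement between both arrays of the same sample, as r over probes, was 0.559 to 0.764 for IVF embryos, 0.638 to 0.703 for NT embryos, 0.548 to 0.730 for AI embryos and 0.248 to 0.325 for donor cells. Agreement was thus lowest for the donor cells, which also had the fewest samples.

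GAR1 had a log2 ratio of -0.97 at the lowest, 0.72 at the median and 1.90 at the highest of the 15 IVF embryos. In NT embryos these values were 1.85, 2.57 and 2.92, and in AI embryos they were 1.55, 2.49 and 3.13. The donor cell samples had 0.12 and -0.57. The IVF embryos lay below most other embryos, with 14 of 15 below the lowest NT embryo and 12 of 15 below the lowest AI embryo, and both donor cell samples fell inside the IVF range. The mean was 0.71 ± 0.86 in IVF, 2.56 ± 0.29 in NT and 2.37 ± 0.44 in AI embryos (SD, n = 15, 15 and 14). The difference was -1.85 ± 0.21 between IVF and NT and -1.66 ± 0.21 between IVF and AI (SE), a level 3.60-fold and 3.16-fold lower in IVF embryos.

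LARP7 had -2.18 at the lowest, -0.55 at the median and 0.84 at the highest IVF embryo. It had 0.36, 0.77 and 1.69 in NT embryos, and 0.44, 1.07 and 1.72 in AI embryos. The donor cell samples had 1.45 and 0.98. Both donor cell samples lay inside the NT and AI ranges, where those of GAR1 lay below them, and all 15 IVF embryos lay below both donor cell samples. Among IVF embryos 12 of 15 were below the lowest NT embryo, and 12 of 15 were below the lowest AI embryo. The difference in log2 ratio was -1.49 ± 0.22 between IVF and NT and -1.67 ± 0.22 between IVF and AI embryos (SE), which corresponds to 2.81-fold and 3.19-fold lower levels in IVF.

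PABPN1 had -2.23, -1.08 and 0.07 at the lowest, median and highest IVF embryo. NT embryos had -0.36, 0.66 and 1.29, and AI embryos had -0.12, 0.57 and 1.30. The donor cell samples had -0.06 and 0.44. The groups overlapped by few embryos, since 13 of 15 IVF embryos were below the lowest NT embryo and 14 of 15 were below the lowest AI embryo. The difference was -1.66 ± 0.18 between IVF and NT and -1.64 ± 0.18 between IVF and AI embryos (SE), or 3.16-fold and 3.11-fold lower in IVF.

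ZCCHC17 had -1.80 at the lowest, -0.85 at the median and -0.14 at the highest IVF embryo. It had -0.57, 0.52 and 1.37 in NT embryos, and 0.51, 0.91 and 1.80 in AI embryos. The donor cell samples had -1.63 and -0.72, within the range of the IVF embryos. ZCCHC17 was the member for which every IVF embryo lay below every AI embryo, a separation seen for 0.432% of all genes tested. Against NT embryos 12 of 15 IVF embryos lay below the lowest, and for no member were IVF and NT embryos fully apart, as they were for 0.25% of genes. The difference was -1.46 ± 0.19 between IVF and NT and -2.02 ± 0.19 between IVF and AI embryos (SE), or 2.75-fold and 4.06-fold lower in IVF.

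**Figure D1:**
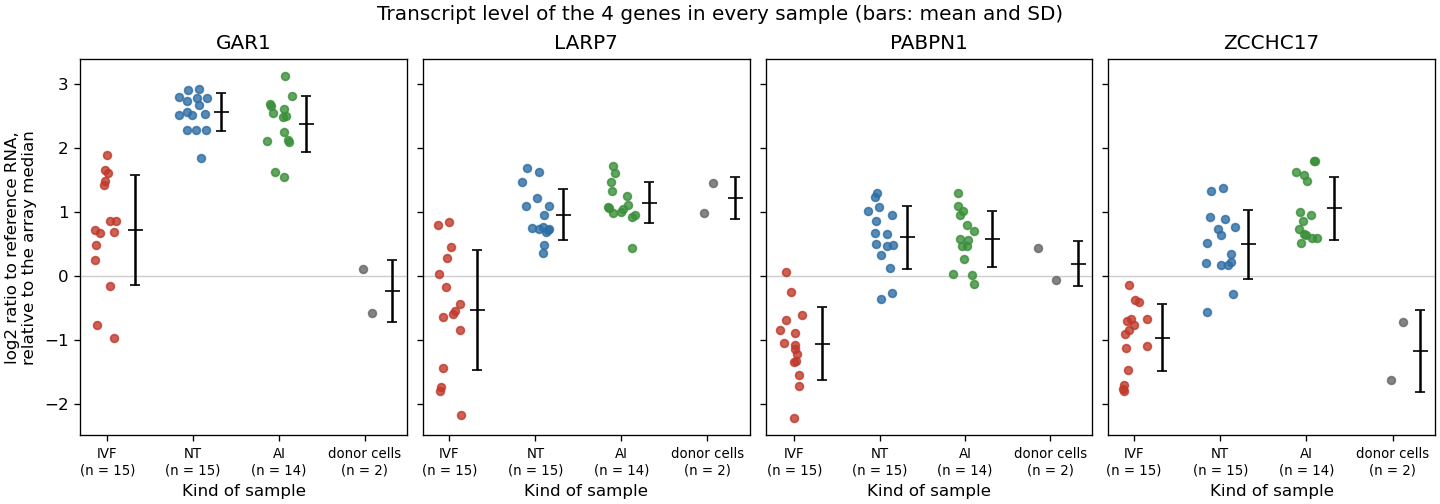
Log2 ratio to the reference RNA, relative to the array median, of GAR1, LARP7, PABPN1 and ZCCHC17 in each of 15 IVF, 15 NT and 14 AI embryos and 2 donor cell samples. Points are samples, and bars give the mean and SD; IVF embryos lie lowest among embryos for each gene, while the donor cells are high for LARP7 and low for GAR1 and ZCCHC17.

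Of all genes tested, 38 had an IVF mean lower by 1 log2 unit or more than both the AI and the NT mean, or 0.864%, and the 4 members were among them by choice. When genes were ordered by the smaller of their IVF differences, GAR1 was at position 2, PABPN1 at 3, LARP7 at 5 and ZCCHC17 at 6 of 4398. MPHOSPH8, whose protein binds methylated histone H3 in silenced chromatin, and EIF4A1, an RNA helicase of translation initiation, held the other places among the first 6. Because an embryo was measured whole, fewer cells of a type and less RNA per cell cannot be told apart. The share of missing spot values averaged 4.17% in IVF, 4.60% in NT and 5.37% in AI samples, and the array medians as deposited averaged -0.27 in IVF, 0.11 in NT and -0.31 in AI samples. None of the 184 spot values of any member was missing. On values without centring, the members differed between IVF and NT embryos by -2.23 (GAR1) to -1.84 (ZCCHC17) and between IVF and AI embryos by -1.99 (ZCCHC17) to -1.61 (PABPN1).

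Markers of cell types were also compared between kinds of embryo. Over all genes, 29.5% were called for IVF against AI, 24.2% for IVF against NT and 8.07% for NT against AI. The marker counts below are to be read beside these shares. The mean level of the 17 trophectoderm markers lay between 1.39 and 2.12 in IVF embryos, between 0.86 and 1.91 in NT embryos and between 1.55 and 2.24 in AI embryos. By limma 6 of them rose and 1 fell in IVF against NT, with a median difference of 0.28, 2 rose and 3 fell in IVF against AI, with a median of -0.07, and 4 fell in NT against AI, with a median of -0.36. Without centring these counts were 3 and 3, 2 and 2, and 3 that rose and 2 that fell. On that scale 39.9%, 15.9% and 45.4% of all genes were called in the same comparisons. Of the 2 tested inner cell mass markers 1 rose and 1 fell in IVF against NT, and 1 rose in IVF against AI. Without centring the rise against NT was not called. Of the 9 fibroblast markers 1 rose and 3 fell in IVF against NT, and 2 fell in IVF against AI. Of the 4 tested cumulus and granulosa markers 1 rose in IVF against AI and none was called against NT, and none of the 3 tested blood cell markers was called in either comparison. The part of these markers in the levels of the 4 genes was not tested.

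The embryos differed in how many of the members were low. In 6 IVF embryos all 4 genes were below every NT and AI embryo, in 7 embryos 3 of the 4 were, and in 2 embryos 2 were. The IVF levels that chose the genes enter these counts, and the same count was not made over all genes. The mean log2 ratio over the 4 members ran between -1.21 and 0.13 in IVF embryos, between 0.73 and 1.66 in NT embryos and between 0.98 and 1.53 in AI embryos, so that by this mean, which the choice of genes lowers, the IVF embryos stood apart from the other embryos but not from the donor cells at -0.031 and 0.031. IVF embryo 1 had the lowest mean, with 0.25 for GAR1, -2.18 for LARP7, -1.21 for PABPN1 and -1.70 for ZCCHC17. IVF embryo 19 came next, with the lowest GAR1 of all samples at -0.97, LARP7 at -1.79 and ZCCHC17 at -1.77, yet it had the highest PABPN1 of the IVF embryos at 0.07. The reverse was seen in IVF embryo 7, which had the highest GAR1 of the IVF embryos at 1.90 and the lowest PABPN1 of all samples at -2.23. IVF embryo 5 had the highest LARP7 at 0.84 and the highest ZCCHC17 at -0.14 of the IVF embryos, with PABPN1 at -1.34. IVF embryo 10, in contrast, had the lowest ZCCHC17 at -1.80 together with a low PABPN1 at -1.34. These embryos were picked after their values were seen.

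**Figure D2:**
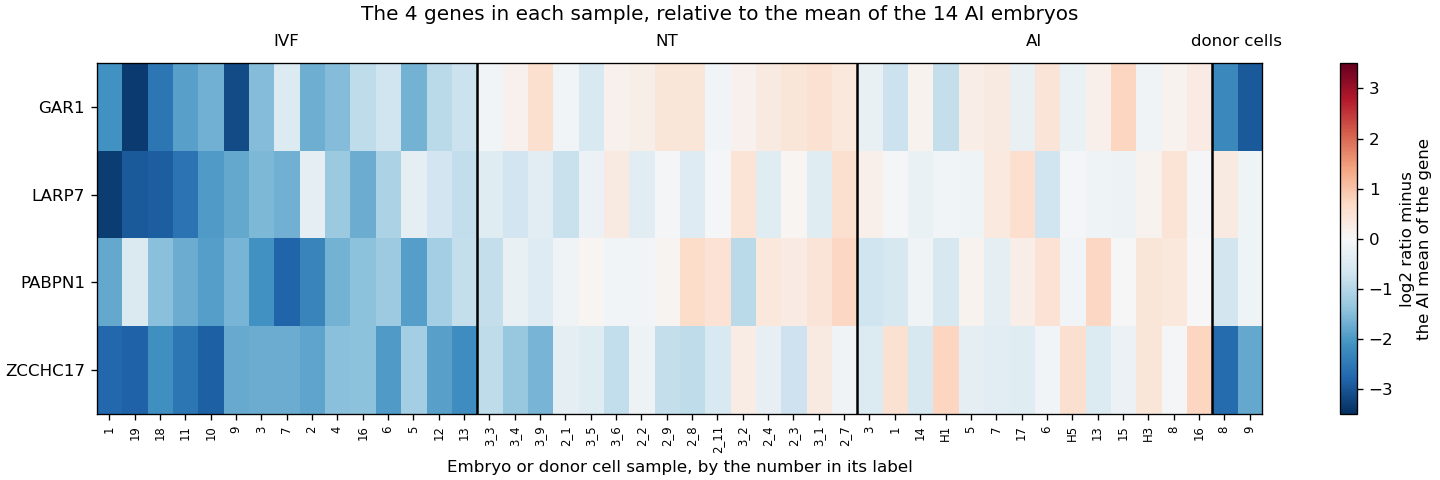
Log2 ratio of each gene in each sample minus the mean of the gene in the 14 AI embryos, with samples ordered within a kind by their mean over the genes and named by the numbers of their labels. Blue is below and red above the AI mean; all 15 IVF embryos lie below the AI mean for every gene, embryo 19 furthest for GAR1 and embryo 7 furthest for PABPN1.

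The difference between NT and AI embryos did not choose the members, but it is not independent of the choice. The same embryos stand in the comparisons with IVF, and levels far above IVF in both kinds favour a small difference between them. With 4 genes, the counts below say little beside the shares over all genes. None of the 4 genes passed an adjusted p of 0.05 between NT and AI embryos by limma, against 8.07% of all genes, and 1 of the 4 had an unadjusted p under 0.05, against 23.7% of all genes. That gene was ZCCHC17, which averaged 0.50 ± 0.54 in NT and 1.06 ± 0.49 in AI embryos (SD, n = 15 and 14). Its difference of -0.56 ± 0.19 (SE) had an adjusted p of 0.0566 by limma, and 13 of 15 NT embryos were below the AI mean. The level of PABPN1 differed by 0.02, with a 95% interval of -0.35 to 0.39, and that of GAR1 by 0.19, with an interval of -0.24 to 0.61. The difference for LARP7 was -0.18, with an interval of -0.64 to 0.27. These intervals use a spread pooled over all samples, IVF embryos included. With NT and AI embryos fitted alone the SE was 0.14 in place of 0.21 for GAR1 and 0.14 in place of 0.22 for LARP7. Neither gene passed in that fit (adjusted p = 0.430 and 0.435 by limma). Without centring GAR1 was higher in NT embryos, by 0.60 with an adjusted p of 0.0346 by limma, on a scale where the median gene was higher by 0.44. The ZCCHC17 result depended on the dye orientation and on centring, since the difference was -0.78 with an adjusted p of 0.0194 on arrays with the sample in Cy5 and -0.34 with an adjusted p of 0.333 on arrays with the sample in Cy3. Without centring it was -0.15 with an adjusted p of 0.544. It was also smaller without the 3 AI embryos labelled H, at -0.40 with an adjusted p of 0.210 by limma.

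Set against the donor cells, GAR1 and ZCCHC17 were higher in NT and AI embryos and LARP7 and PABPN1 did not pass the test. By limma 2 of the 4 genes were higher in NT embryos than in donor cells, where 20.1% of all genes were, and 2 of the 4 were higher in AI embryos than in donor cells, where 20.4% of all genes were. GAR1 was higher by 2.79 ± 0.43 in NT embryos (SE, adjusted p = 6.82e-07) and by 2.60 ± 0.43 in AI embryos (adjusted p = 2.70e-06), and all 15 NT and 14 AI embryos were above both donor cell samples. ZCCHC17 was higher by 1.67 ± 0.39 in NT embryos (adjusted p = 0.000475) and by 2.24 ± 0.39 in AI embryos (adjusted p = 6.43e-06), again with every embryo above both samples. For ZCCHC17 the call in NT embryos rested on donor cell sample 8, the lower at -1.63. Without it the difference was 1.22 with an adjusted p of 0.0895.

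LARP7 differed from donor cells by -0.26, with a 95% interval of -1.17 to 0.65, in NT embryos and by -0.08, with an interval of -0.99 to 0.84, in AI embryos. For PABPN1 these differences were 0.41, with an interval of -0.34 to 1.16, in NT embryos and 0.39, with an interval of -0.36 to 1.14, in AI embryos. With 2 donor cell samples the intervals are wide. IVF embryos differed from donor cells by -1.75 ± 0.45 for LARP7 and -1.25 ± 0.37 for PABPN1, against 0.94 ± 0.43 for GAR1 and 0.21 ± 0.39 for ZCCHC17 (SE). The order of the means, high to low, was thus NT, AI, IVF and donor cells for GAR1, donor cells, AI, NT and IVF for LARP7, NT, AI, donor cells and IVF for PABPN1, and AI, NT, IVF and donor cells for ZCCHC17. The last place for ZCCHC17 is within the spread, since the difference between IVF embryos and donor cells was -0.028 on the arrays with the sample in Cy5 and -0.24 without donor cell sample 8. Other places are unsettled too. The 95% intervals reach both signs between NT and AI embryos for GAR1, LARP7 and PABPN1. They also do so between donor cells and NT or AI embryos for LARP7 and PABPN1.

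**Figure D3:**
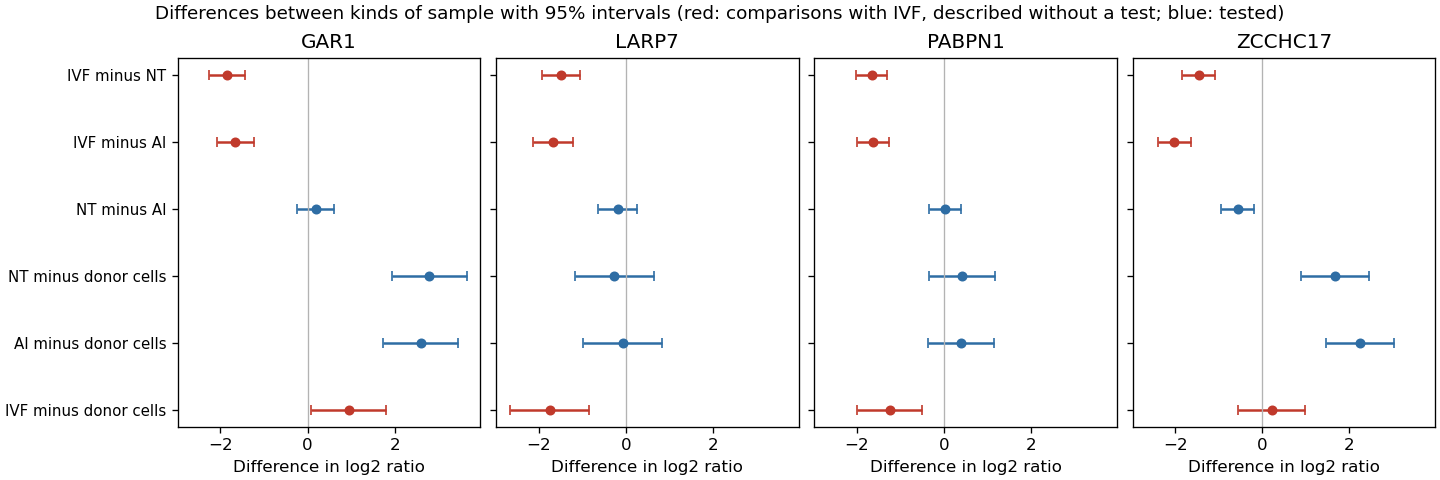
Differences in log2 ratio between kinds of sample for the 4 genes, with 95% intervals from the fit over all 46 samples. Differences with IVF embryos (red) chose the genes and were not tested, and among the tested ones (blue) GAR1 and ZCCHC17 were higher in NT and AI embryos than in donor cells.

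The label prefixes separated none of the members. Between NT embryos with the prefix 2_ and those with the prefix 3_, 0 of the 4 members and 0 of all genes (0.0%) passed by limma, while 351 genes (7.98%) had an unadjusted p under 0.05. Among these was PABPN1, higher by 0.60 ± 0.25 in the embryos with 2_ (SE, p = 0.0192, adjusted p = 0.540 by limma). Between the 3 AI embryos labelled H and the other 11, none of the members passed by limma, against 0.932% of genes. At an unadjusted p under 0.05 the count was 1 of 4, against 11.3% of genes, and this was ZCCHC17, which differed by 0.73 ± 0.32 (SE, p = 0.0270, adjusted p = 0.356 by limma).

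Spread among embryos set GAR1 and LARP7 apart from PABPN1 and ZCCHC17 in description. The SD of GAR1 was 0.86 in IVF, 0.29 in NT and 0.44 in AI embryos, and that of LARP7 was 0.94 in IVF, 0.40 in NT and 0.32 in AI embryos. The SD of PABPN1 was 0.57, 0.50 and 0.43, and that of ZCCHC17 was 0.52, 0.54 and 0.49, in IVF, NT and AI embryos in that order. The median gene had an SD of 0.45 in IVF, 0.41 in NT and 0.44 in AI embryos. The ratio of the IVF SD to the NT SD was 2.95 for GAR1, a ratio reached by 0.387% of genes, and 2.35 for LARP7, reached by 1.48%. Against AI the ratio was 1.95 for GAR1, reached by 4.25% of genes, and 2.93 for LARP7, reached by 0.409%.

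The test of that difference did not pass for any member. The absolute deviations from the median of the kind were compared across all genes by limma, and 1 gene (0.0227%) was called with a larger deviation in IVF than in NT and 3 genes (0.0682%) with a larger one in IVF than in AI. For GAR1 the mean absolute deviation was 0.64 in IVF and 0.22 in NT embryos (p = 0.00298, adjusted p = 0.822 by limma). For LARP7 it was 0.74 in IVF and 0.22 in AI embryos (p = 0.000804, adjusted p = 0.547 by limma). These are the comparisons with the smaller p of each gene. By limma the other p was 0.0300 for GAR1 against AI and 0.00401 for LARP7 against NT. For PABPN1 and ZCCHC17 p by limma was 0.793 and 0.869 against NT and 0.500 and 0.970 against AI. The IVF values that chose the genes enter these tests, which were picked after the levels had been seen. Repeat measurement tracked the same IVF embryos. Over the 15 embryos the r between both arrays was 0.936 for GAR1, 0.878 for LARP7, 0.591 for PABPN1 and 0.552 for ZCCHC17. The median over all genes was 0.454. For the same genes in order, r was 0.552, 0.609, 0.639 and 0.659 in NT embryos, where the median gene had 0.434. In AI embryos it was 0.752, 0.384, 0.591 and 0.670, with a median of 0.512, so LARP7 lay below the median there.

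Whether the members moved together from embryo to embryo was examined within each kind, over 6 pairs in 3 kinds. Two-sided permutation tests over these 18 relations gave no pair that passed after Benjamini-Hochberg adjustment, and 2 pairs had an unadjusted p under 0.05 for Pearson's r and for Spearman's rho. Both were pairs in IVF embryos. LARP7 and ZCCHC17 had r of 0.68 (permutation p = 0.00594, adjusted p = 0.107) and rho of 0.58 (permutation p = 0.0254, adjusted p = 0.231), and r was 0.52 without the 2 embryos farthest from the median of LARP7. GAR1 and LARP7 had r of 0.55 (permutation p = 0.0338, adjusted p = 0.305) and rho of 0.58 (permutation p = 0.0256, adjusted p = 0.231), and r was 0.52 without the 2 farthest embryos. Values of an embryo share its arrays, so each gene was also read from arrays of opposite dye. The r was then 0.54 for each pair.

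Among IVF embryos PABPN1 had r of -0.27 to GAR1, -0.16 to LARP7 and -0.31 to ZCCHC17. None of these passed, and without centring they were 0.060, 0.045 and 0.25. Without the 2 embryos farthest from the median of GAR1, LARP7 and PABPN1, in that order, they were 0.10, -0.18 and -0.03. In NT embryos the 6 pairs had r between -0.10 and 0.30, and in AI embryos between -0.47 and 0.52. The median r of the 6 pairs was 0.12 in IVF, 0.13 in NT and -0.18 in AI embryos, while the median over all pairs of genes was 0.00 in each kind and the highest 5% of pairs began at 0.50 in IVF, 0.46 in NT and 0.48 in AI embryos. The highest r in AI embryos was that of GAR1 and PABPN1, at 0.52 (permutation p = 0.0594, adjusted p = 0.356), and it was 0.19 without the 2 AI embryos farthest from the median of GAR1. As deposited, without centring, it was 0.77 with an adjusted p of 0.0202.

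**Figure D4:**
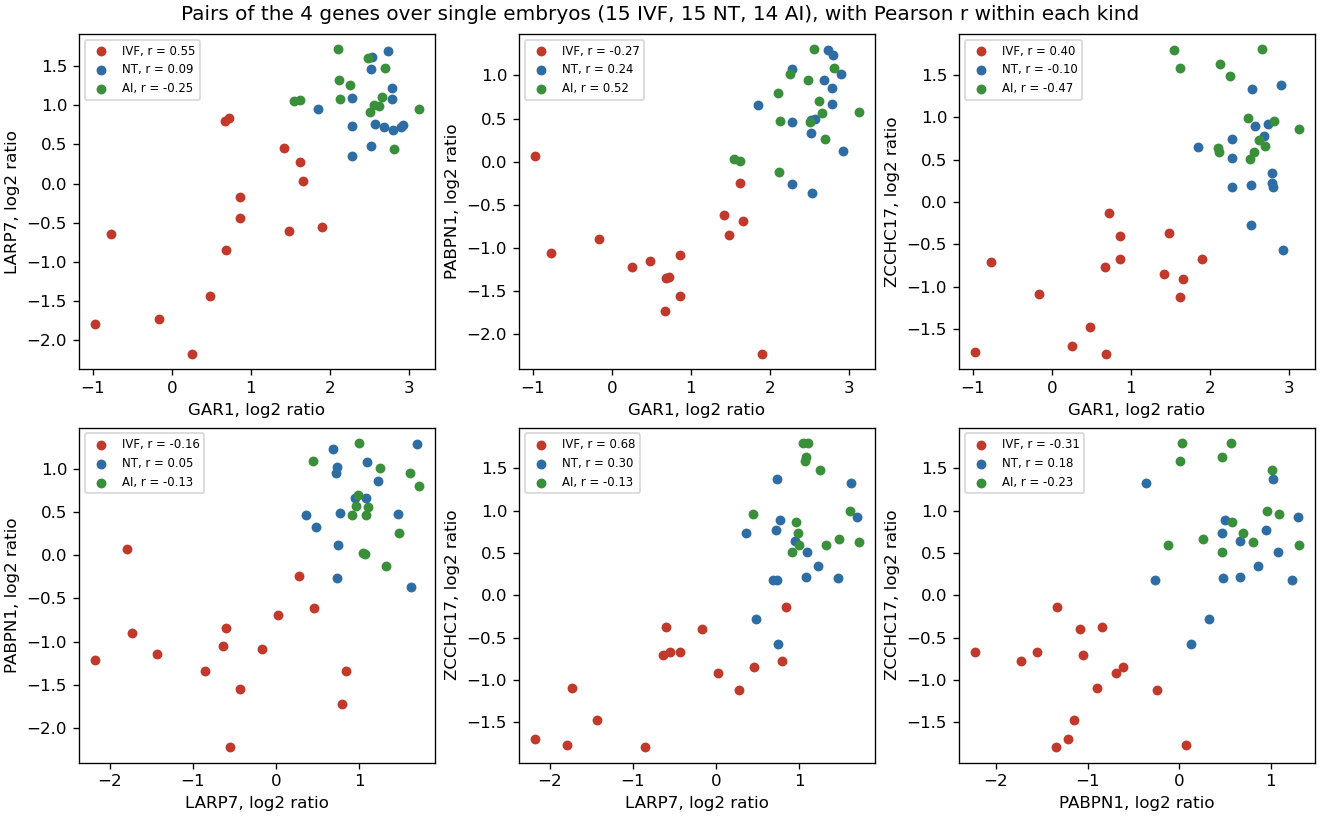
Log2 ratios of each pair of the 4 genes over single IVF, NT and AI embryos, with Pearson r within each kind in the legend. Within IVF embryos LARP7 and ZCCHC17 lie along a rising band, while PABPN1 has negative r with each other gene. That sign turned without centring, and for GAR1 also without the 2 embryos farthest from its median. None of the 18 correlations passed adjustment.

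The genes whose levels most resembled the mean of the 4 members over the 44 embryos were, among 4227 genes compared, H2AZ1 (r = 0.878), COX7A2 (r = 0.876), EIF4A1 (r = 0.855), ZCRB1 (r = 0.852) and HSPE1 (r = 0.852). Their likeness includes the low IVF level by which the members were chosen. H2AZ1, a variant histone, averaged -0.61 in IVF, 0.40 in NT and 0.43 in AI embryos, and COX7A2, a subunit of cytochrome c oxidase, averaged -0.14, 0.91 and 1.19 in the same kinds. ZCRB1, a zinc knuckle protein of the minor spliceosome, averaged 0.04 in IVF, 1.31 in NT and 1.55 in AI embryos. After the mean of each kind had been taken off, the closest genes were AQP3, an aquaporin and one of the trophectoderm markers (r = 0.591), SEC62 (r = 0.578), HSPE1 (r = 0.564), ANXA6 (r = 0.537) and SET (r = 0.537). HSPE1, a mitochondrial chaperonin subunit, thus stood in both lists. The median gene had r of -0.01 for levels and 0.01 for deviations.

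Genes of the members' own complexes, and of related particles, processes and protein families, were gathered in 10 lists that leave the members out. The pooled counts below are thus not counts of the members' own complexes. Of 141 listed genes 53 could be tested. Between IVF and AI embryos 8 of the 53 rose and 14 fell by limma, or 41.5% against 29.5% of all genes, with a median difference of -0.06 against 0.03 over all genes. Between IVF and NT embryos 5 rose and 9 fell, or 26.4% against 24.2% of all genes, with a median difference of -0.08 against 0.00. Between NT and AI embryos 2 rose and 1 fell, or 5.66% against 8.07% of all genes. Without centring, 0 rose and 28 fell between IVF and NT embryos and 25 rose and 0 fell between NT and AI embryos, where the median of all genes was shifted by -0.38 and 0.44. No listed gene was lower by over 1 log2 unit in IVF than in AI embryos, and 2 were so against NT embryos. All p-values of listed genes below are limma's, adjusted over all genes tested.

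The H/ACA list held 5 tested genes besides GAR1. Of these 1 fell and none rose between IVF and AI embryos, 2 fell and none rose between IVF and NT embryos, and the median differences were -0.14 and -0.20. DKC1, NOP10 and NOLC1 were called in neither comparison. DKC1 differed by -0.34 from AI (adjusted p = 0.0655) and by -0.20 from NT (adjusted p = 0.317). NOP10 differed by -0.14 from AI (adjusted p = 0.298) and by -0.08 from NT (adjusted p = 0.590). NAF1, an assembly factor that GAR1 replaces in the mature particle, had -1.74, -0.90 and -0.13 at the lowest, median and highest IVF embryo, against -1.21, 0.25 and 1.31 in NT embryos and -1.74, -0.23 and 0.81 in AI embryos. The kinds overlapped, and NAF1 fell by 1.03 ± 0.20 log2 units in IVF against NT (SE, adjusted p = 0.000167) and by 0.59 ± 0.21 against AI (adjusted p = 0.0273). The second call was lost without centring and on the arrays with the sample in Cy3. SHQ1, another assembly factor, fell by 0.52 ± 0.15 against NT (adjusted p = 0.00857) and differed by -0.11 from AI (adjusted p = 0.628).

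The related box C/D particles, which guide methylation of ribose in ribosomal RNA, had 4 tested genes, of which 3 fell and 1 rose between IVF and AI embryos, with a median of -0.63, and 1 fell between IVF and NT embryos, with a median of -0.28. NOP56, a core protein, had -2.24, -0.87 and -0.20 at the lowest, median and highest IVF embryo, against -0.44, 0.10 and 1.26 in NT embryos and -1.12, -0.14 and 0.69 in AI embryos. It fell by 1.12 ± 0.19 against NT (SE, adjusted p = 2.05e-05) and by 0.76 ± 0.20 against AI (adjusted p = 0.00271). SNU13, which binds the fold of the guide RNA, fell by 0.98 ± 0.14 against AI (adjusted p = 7.48e-07) and differed by -0.26 from NT (adjusted p = 0.179). It also fell by 0.72 ± 0.14 in NT against AI embryos (adjusted p = 0.000554), a call lost without centring and on the arrays with the sample in Cy5. PIH1D1, a cofactor of particle assembly, rose by 0.52 ± 0.13 in IVF against AI (adjusted p = 0.00181). NOP58, the other core protein named, fell by 0.51 ± 0.18 against AI (adjusted p = 0.0277), and this call was lost in 4 of 5 other settings of scale and dye.

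In the list of 7SK and P-TEFb genes, around LARP7, 2 of 5 tested genes rose and 1 fell between IVF and AI embryos, with a median of 0.12, and 1 rose between IVF and NT embryos, with a median of 0.03. MEPCE and HEXIM2 were called in neither comparison. MEPCE differed by -0.11 from AI (adjusted p = 0.810) and by 0.04 from NT (adjusted p = 0.935). HEXIM2 differed by 0.12 from AI (adjusted p = 0.323) and by -0.03 from NT (adjusted p = 0.822). AFF1, a scaffold of the super elongation complex, had 0.29, 1.15 and 2.00 at the lowest, median and highest IVF embryo, against -0.17, 0.31 and 1.01 in NT embryos and 0.00, 0.52 and 1.03 in AI embryos. It rose by 0.69 ± 0.14 against NT (SE, adjusted p = 0.000170) and by 0.59 ± 0.14 against AI (adjusted p = 0.00112). The call against NT was lost without centring, and the call against AI was lost on the arrays with the sample in Cy5. CDK9, the kinase of P-TEFb, rose by 0.43 ± 0.12 in IVF against AI (adjusted p = 0.00547) and by 0.40 ± 0.12 in NT against AI (adjusted p = 0.0319), and each call was lost on arrays of at least 1 dye orientation. ELL, an elongation factor, fell by 0.45 ± 0.16 in IVF against AI (adjusted p = 0.0270), a call lost without centring and on the arrays with the sample in Cy3. SSB, the La protein itself and 1 of 2 tested genes of the La list, fell by 0.88 ± 0.15 against AI (adjusted p = 8.96e-06) and by 0.68 ± 0.14 against NT (adjusted p = 0.000349).

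Among genes of cleavage and polyadenylation, the step at which PABPN1 acts, 1 of 6 tested rose and 1 fell against AI, with a median of 0.13, and 1 rose and 1 fell against NT, with a median of -0.07. CPSF3, the nuclease that cuts the transcript, had -1.91, -0.67 and 0.08 at the lowest, median and highest IVF embryo, against -0.86, 0.09 and 0.68 in NT embryos and -0.84, 0.06 and 0.93 in AI embryos. It fell by 0.89 ± 0.18 against NT (SE, adjusted p = 0.000293) and by 0.89 ± 0.19 against AI (adjusted p = 0.000258). PCF11, which links cleavage to termination, rose by 0.67 ± 0.22 against AI (adjusted p = 0.0203), and this call was lost on the arrays with the sample in Cy5. PAPOLA, the poly(A) polymerase that PABPN1 stimulates, rose by 0.70 ± 0.24 against NT (adjusted p = 0.0311), a call lost without centring and on the arrays with the sample in Cy5, and differed by 0.11 from AI (adjusted p = 0.772).

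Genes of cytoplasmic poly(A) binding were 6, of which 1 rose and 2 fell against AI, with a median of 0.03, and 2 fell against NT, with a median of 0.04. PAIP2, a repressor of the cytoplasmic poly(A)-binding protein, fell by 0.98 ± 0.15 against AI (SE, adjusted p = 4.16e-06) and by 0.78 ± 0.15 against NT (adjusted p = 0.000145). PAN3, a subunit of a poly(A) nuclease, fell by 0.98 ± 0.17 against NT (adjusted p = 1.90e-05) and by 0.56 ± 0.17 against AI (adjusted p = 0.0101). Its partner PAN2 rose by 0.28 ± 0.11 against AI (adjusted p = 0.0391), and the calls of PAN2 and PAN3 against AI were lost without centring, that of PAN2 also on the arrays with the sample in Cy5. In the nuclear exosome list 1 of 6 genes rose against each kind and none fell, with medians of -0.03. That gene was MTREX, an RNA helicase, which rose by 0.49 ± 0.13 against AI (adjusted p = 0.00352) and by 0.43 ± 0.13 against NT (adjusted p = 0.0112), and both calls were lost without centring. The call against AI was also lost on the arrays with the sample in Cy5 and that against NT on those with the sample in Cy3.

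The lists around ZCCHC17 were the zinc knuckle family and the nucleolus. Of 4 tested zinc knuckle genes 1 fell against AI and none was called against NT, with medians of -0.05 and 0.00. That list does not hold ZCRB1, the zinc knuckle gene with a profile like the members', whose mean differed by -1.51 between IVF and AI and by -1.26 between IVF and NT embryos. CNBP, a zinc knuckle protein that binds single-stranded nucleic acid, fell by 0.58 ± 0.16 in IVF against AI (SE, adjusted p = 0.00429), and the call was lost without centring. Of 13 tested genes of the nucleolus and ribosome assembly 2 rose and 3 fell against AI, and 2 rose and 2 fell against NT, with medians of -0.06 and -0.05. NCL, the abundant nucleolar protein nucleolin, fell by 0.74 ± 0.14 against NT (adjusted p = 9.89e-05) and by 0.53 ± 0.14 against AI (adjusted p = 0.00395). EBNA1BP2, an assembly factor of the large subunit, fell by 0.64 ± 0.12 against AI (adjusted p = 5.61e-05), a call lost on the arrays with the sample in Cy3.

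In the same nucleolar list DDX21, an RNA helicase, rose by 0.50 ± 0.11 in IVF against NT (SE, adjusted p = 0.000707), and NOB1, a nuclease of small-subunit maturation, rose by 0.39 ± 0.09 against NT (adjusted p = 0.00157). Both of these calls were lost without centring. Of 3 tested Sm core and SMN genes, SNRPD3, a protein of the spliceosomal Sm ring, fell by 0.58 ± 0.13 against AI (adjusted p = 0.000740) and none was called against NT. That call was lost on the arrays with the sample in Cy3. Among the 23 called listed genes named here, the larger of the differences with AI and NT embryos was -0.89 at the lowest (CPSF3), while for the members, chosen for it, it ran between -1.66 (GAR1) and -1.46 (ZCCHC17).

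**Figure D5:**
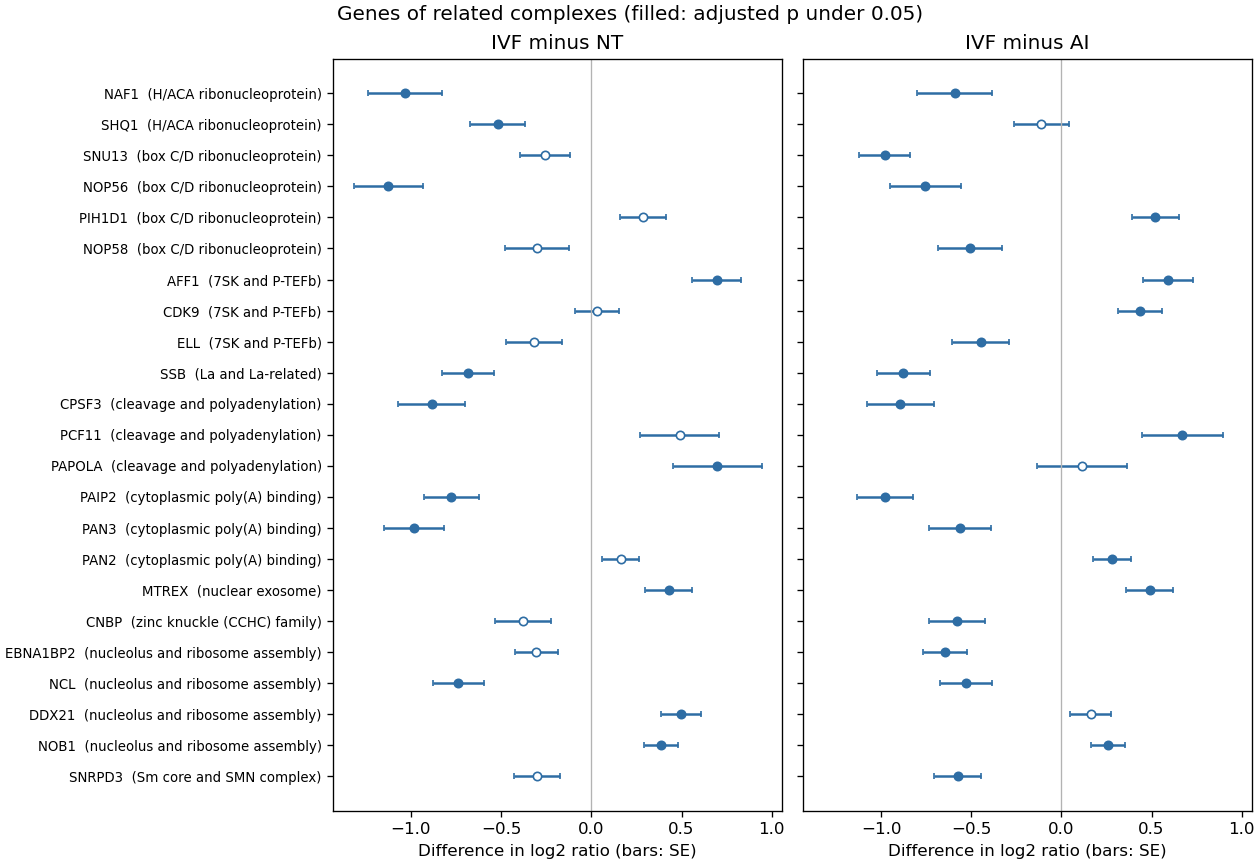
Differences in log2 ratio between IVF and NT embryos (left) and between IVF and AI embryos (right) for the called genes named from the lists around the members, with SE. Filled points passed an adjusted p of 0.05; both directions occur in most of the larger lists. Without centring no listed gene rose in IVF against NT.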

How the data were processed

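Single bovine blastocysts and donor cells were measured on 2-colour cDNA arrays. The deposited values are log2 ratios of both dye channels per spot, per the file headers and labels. The labels' protocols state Trizol extraction, linear amplification with more rounds for samples than for the reference RNA, and aminoallyl labelling. Scanner, background correction and normalisation are not given in the sources used here, and without intensities spot brightness is unknown. Precision is limited by how many embryos and donor cell samples there are, since both arrays of a sample measure the same sample. The fill value of 16.61 (2657 cells) was set to missing, and 4.39% of cells were empty. The sign of every array that carried its sample in Cy3 was reversed, because both arrays of a sample correlated negatively as deposited, and each array was centred on its median. Duplicate spots, then both arrays of a sample, then probes with 1 gene symbol were averaged. Probes needed values in 50% of the samples of each embryo kind and in both donor cell samples, which left 7992 probes and 4398 genes.

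Differences came from limma 3.58.1 (lmFit and eBayes, R 4.3.3) over all 46 samples, with Benjamini-Hochberg adjustment over all genes at 0.05, two-sided. Spread was tested by limma on absolute deviations, chosen after the levels had been seen. Correlations used 100000 permutations (scipy 1.17.1). The fit was checked on simulated data. The members and gene lists were chosen with earlier results of these data known. Genes named are the 4 members, up to 4 called genes per list with the smallest p between embryo kinds, and the 5 genes most like the members' mean by each measure. MPHOSPH8, individual embryos and the uncalled genes DKC1, NOP10, NOLC1, MEPCE and HEXIM2 were named after their values were seen. AI and IVF labels share 7 embryo numbers, but same-numbered embryos did not deviate together (r of -0.06 to 0.09 over genes), so no block was used. Alternatives tried were other scalings, each dye alone, other filters, label prefixes and single donor cell samples.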

Additional observations from a re-analysis of the deposited data

How the results depend on the processing

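Across the alternatives, 122 of the differences of the members with IVF embryos kept their direction and 2 did not. The choice of genes as low in IVF favoured that direction against other embryos. The alternatives also reuse the same arrays, so that count is no support for the difference. Of the tested differences, 197 kept their side of the threshold. Between IVF and AI embryos the difference ran between -1.78 and -1.22 for GAR1, -1.84 and -1.43 for LARP7, -1.70 and -1.58 for PABPN1 and -2.22 and -1.79 for ZCCHC17. Between IVF and NT embryos it ran between -2.23 and -1.79, -1.87 and -1.48, -2.04 and -1.34, and -1.84 and -1.37 for the same genes. Without centring, GAR1 passed between NT and AI embryos at 0.60 (adjusted p = 0.0346 by limma), where adjusted p ran between 0.0346 and 0.947 over its alternatives. On arrays with the sample in Cy5, ZCCHC17 passed at -0.78 (adjusted p = 0.0194, over a range of 0.0194 to 0.544) and its difference between IVF embryos and donor cells was -0.028. Leaving out a donor cell sample moved ZCCHC17 to between 1.22 and 2.13 for NT embryos against donor cells and to between -0.24 and 0.67 for IVF embryos against donor cells. The cause was not tested.

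With the replicate block over the 7 embryo numbers that IVF and AI labels share, which do not pair the embryos, the difference between IVF and AI was -1.22 for GAR1, -1.43 for LARP7, -1.70 for PABPN1 and -1.79 for ZCCHC17. The genes called numbered 458 with the block, 690 in the same 14 embryos without it and 1299 in all embryos. Without centring, calls numbered 698 for IVF against AI, 1755 against 1066 for IVF against NT, and 1997 against 355 for NT against AI. For NT against AI there were 550 calls on arrays with the sample in Cy5, 216 with it in Cy3, 167 with the embryos labelled 2_ alone and 178 with those labelled 3_ alone. IVF against NT gave 697 with those labelled 3_. Single donor cell samples left 1022 to 1024 calls for NT, 1067 to 1084 for AI and 966 to 986 for IVF embryos against donor cells, with 1558, 1627 and 1508 in the full comparison. The split of AI embryos by H gave 4 to 41 calls, and that of NT embryos by prefix 0 to 1. Of the correlations, 53 kept their side and that of GAR1 and PABPN1 in AI embryos passed without centring, at 0.77.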
